A study of Macaca fascicularis with 23 samples.

Results

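Collagen expression was followed in Cynomolgus monkey (Cm) pluripotent stem cells (PSCs) and in the somatic cells from which some of the PSCs were made, for 10 collagen genes out of the 8415 genes analysed. The 10 (COL11A1, COL1A2, COL6A1, COL6A2, COL7A1, COL8A1, COL9A2, COL12A1, COL16A1 and COL18A1) were chosen by name, after their RPM values in the media and in the somatic cells were known, and all 10 were found among the 21 collagen genes of the data. Their levels in the 3 media, in the lines and in the somatic cells are therefore given as a description, without p-values. Where a collagen is said to be called or to pass the threshold of a fit, this only sets its difference beside its spread. Such a call is no test of genes chosen in this way. The 21 PSC libraries came from 7 lines, each in 3 media. CMK6 (male), TRSK (male) and CMK9 (female) are embryonic stem cell (ESC) lines. Of the induced pluripotent stem cell (iPSC) lines, iPS-L3 and iPS-L6 originated in liver cells, while stomach cells gave rise to iPS-S6 and iPS-S12. Primed cells grew in bFGF/KSR medium with 4 ng/ml bFGF. Naïve-like cells grew in K5cLD medium, which held a mix of chemicals with LIF and with 1 μM doxycycline (Dox). Dox is the drug that switches on the human KLF2 and NANOG transgenes carried by PiggyBac vectors in the converted cells. Differentiated cells grew in K5c medium, the same base without LIF and Dox, and so kept the vectors while the inducer was absent. Whether the primed libraries carried the vectors is not given in the sources used here. The somatic cells were 1 culture of liver and 1 culture of stomach cells, kept in serum with hepatocyte and epidermal growth factors. They and all 4 iPSC lines go back to a single female foetus, so the iPSC lines are not independent donors, and each line gave 1 library per medium.

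Collagens are the main structural proteins of the extracellular matrix, the scaffold that cells secrete around themselves. Each molecule is a triple helix of collagen chains that is modified in the secretory pathway, trimmed outside the cell and built into larger structures. Fibrillar collagens form the ropes of connective tissue, type VI collagen forms beaded microfibrils around cells, fibril-associated collagens decorate the ropes, and other types form networks or anchor basement membranes. Fibroblasts and related mesenchymal cells are the best known producers, whereas pluripotent cells in culture mostly rest on a laminin-rich matrix, here a laminin coating without feeder cells.

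Levels are RPM, the mapped reads of a gene's 3′ end scaled to the total of the library, and changes are differences of log2(RPM + 1). Depth ranged from 861000 to 7986000 reads per library, and 3 reads corresponded to 0.376 to 3.49 RPM, below which a level was taken as not detectable. Levels are compared between libraries for 1 gene, not between genes. The pluripotency markers summed to between 976 and 2858 RPM in the PSC libraries, against 2.93 RPM in the liver and 0.973 RPM in the stomach library. The sum hides losses in differentiated cells, where LIN28A and SOX2 stood at 634 to 1417 and 220 to 653 RPM. Of the 9 markers, 5 were called lower there than in naïve-like cells and 0 higher, beside 14.1% of all tested genes. POU5F1, CRIPTO, HESX1 and DPPA4 differed by -4.14, -5.59, -4.97 and -2.35, lower in 7 of 7 lines each. In the stomach library the gastric epithelial genes AGR2, CLDN18, TFF2 and TFF1 stood at 950, 188, 166 and 89.5 RPM, and all of them were at 0 in the 21 PSC libraries. The other 6 gastric genes measured were low or undetected in the stomach library, with GHRL at 7.13, MUC1 and SST at 2.92 each, TFF3 at 1.297 and PGC and SOX2 at 0 RPM, of which SOX2 is also a pluripotency gene and SST reached 29.7 RPM in a primed library. In the liver library, by contrast, the 6 hepatocyte markers measured (ALB, AFP, APOA2, TF, AHSG and CYP3A4) were all at 0, which allows up to 1.76 RPM each. The label liver is therefore used here for the organ of origin, since no hepatocyte marker was detected.

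The levels of all 10 genes are drawn library by library in the plot of collagen levels, in which the lines of most panels dip in the middle. Naïve-like cells had a lower mean level than primed cells for all 10 collagens. Of the 10, 7 are among the 2776 tested genes, of which 43.7% had a lower mean. The other collagens, COL6A2, COL9A2 and COL16A1, were too low in PSCs to be tested. COL11A1 and COL6A1 were lowest relative to primed cells, with differences of -2.23 ± 0.43 and -2.06 ± 0.53 on the log2 scale (± SE of the fit, 7 lines each). After withdrawal of LIF and Dox, COL11A1 and COL12A1 were higher again by 2.77 ± 0.43 and 1.98 ± 0.44, in 7 of 7 lines each. These libraries hold mixed cultures, so fewer cells making a collagen and less of its RNA per cell cannot be told apart.

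**Figure D1:**
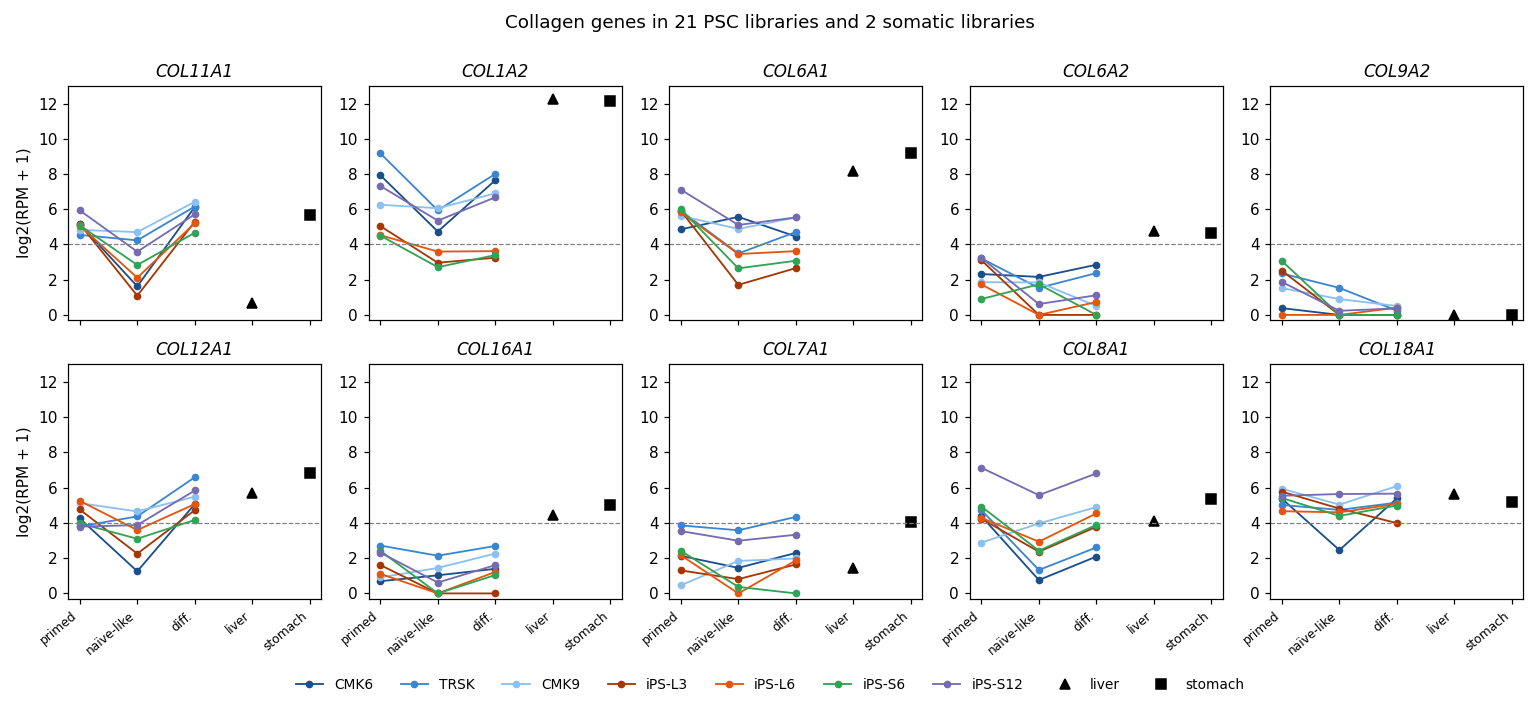
Levels of the 10 collagen genes, as log2(RPM + 1), in primed, naïve-like and differentiated (diff.) libraries of 7 lines, with each line joined across its 3 media, and in 1 liver and 1 stomach library (black). The dashed line at 4 is the level above which a gene counts as expressed. COL1A2 in both somatic libraries lies far above every PSC library, at 4832 and 4506 RPM against at most 579 RPM.

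COL11A1 encodes a chain of the fibrillar type XI collagen, which helps set the thickness of fibrils and is best known from cartilage. It stood between 22.3 RPM (TRSK) and 60.2 RPM (iPS-S12) in primed cells, with a median of 33.01. In naïve-like cells the range was 1.13 RPM (iPS-L3) to 25.04 RPM (CMK9), with a median of 6.13. In differentiated cells it was 24.4 RPM (iPS-S6) to 84.8 RPM (CMK9), with a median of 51.4. Naïve-like levels were thus the most spread, with TRSK at 17.8 and CMK9 at 25.04 RPM close to their primed levels of 22.3 and 27.4 RPM, and CMK6 and iPS-L3 almost without signal. The level was lower than in primed cells in 7 of 7 lines, but the ranges touched, because naïve-like CMK9 lay above primed TRSK. On the log2 scale the order was differentiated (5.66 ± 0.63, SD, n = 7), primed (5.11 ± 0.43) and naïve-like (2.88 ± 1.36). The first pair differed by 0.54 ± 0.43 (SE), with 5 of 7 lines higher in the differentiated state, and did not pass the threshold of the fit, an adjusted p of 0.05.

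COL1A2 encodes a chain of type I collagen, the main fibrillar collagen of skin, bone and tendon. Primed levels ran from 21.7 RPM (iPS-S6) over a median of 75.5 to 579 RPM (TRSK). Naïve-like levels ran from 5.55 RPM (iPS-S6) over 25.6 to 65.6 RPM (CMK9), and differentiated levels from 8.500 RPM (iPS-L3) over 101 to 257 RPM (TRSK). The same lines were low throughout: iPS-S6, iPS-L3 and iPS-L6 were the lowest 3 in each medium, at 21.7 to 32.1 RPM primed, 5.55 to 11.1 RPM naïve-like and 8.500 to 11.3 RPM differentiated. The naïve-like level was below the primed level of the same line in 7 of 7 lines, from 579 to 60.3 RPM in TRSK and from 75.5 to 65.6 RPM in CMK9. Set against the large spread between lines, the mean difference of -1.92 ± 0.84 did not pass the threshold. It did when line was added to the fit as a block, which brought the standard error to 0.31. The return in differentiated cells was 1.17 in 7 of 7 lines, again past the threshold only with the block. That return was small in iPS-L6, where the level went from 11.1 to 11.3 RPM, and large in CMK6, where it went from 25.6 to 199.8 RPM.

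COL6A1 and COL6A2 encode chains that assemble together into type VI collagen, and their genes neighbour each other in the T2T-MFA8v1.1 annotation. COL6A1 stood at 28.0 RPM (CMK6) to 137 RPM (iPS-S12) in primed cells with a median of 59.1. It stood at 2.27 RPM (iPS-L3) to 46.4 RPM (CMK6) in naïve-like cells with a median of 10.23, and at 5.31 RPM (iPS-L3) to 45.3 RPM (CMK9) in differentiated cells with a median of 20.9. CMK6 went against the other lines, with 28.0 RPM primed and 46.4 RPM naïve-like, so the level was lower in 6 of 7 lines. Unlike COL11A1, COL6A1 stayed below its primed level after withdrawal of LIF and Dox in 7 of 7 lines. Its mean difference was -1.67 ± 0.53 from primed cells and 0.39 ± 0.53 from naïve-like cells. In iPS-L3 the level was 59.4 RPM primed, 2.27 RPM naïve-like and 5.31 RPM differentiated, whereas in CMK9 it was 48.2, 28.5 and 45.3 RPM. The call of the difference from primed cells was lost without iPS-L3, TRSK, iPS-L6 or iPS-S6, with differences of -1.40, -1.74, -1.58 and -1.46. COL6A2 was low in all PSC libraries, at 0.869 to 8.42 RPM in primed, 0 to 3.46 RPM in naïve-like and 0 to 6.20 RPM in differentiated cells, with medians of 4.00, 1.89 and 0.666 RPM. It never reached the expression threshold in a PSC library and was at or below 3 reads in 10 of 23 libraries, so that it had no test.

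The fibril-associated collagens were COL12A1, COL16A1 and COL9A2. COL12A1, a large collagen of dense connective tissue that binds type I fibrils, had medians of 18.2 RPM in primed (12.8 to 37.2), 11.1 RPM in naïve-like (1.38 to 24.2) and 32.6 RPM in differentiated cells (17.0 to 95.6). The naïve-like level was lower than the primed level in 5 of 7 lines and higher in TRSK and iPS-S12, by -1.12 ± 0.44 on average, which passed the threshold only with the cell line as a block or without TRSK. Every line was higher in the differentiated than in the naïve-like state, from 1.38 to 32.6 RPM in CMK6 and from 19.7 to 95.6 RPM in TRSK. Differentiated cells were also higher than primed cells in 5 of 7 lines, by 0.86 ± 0.44, without passing the threshold.

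COL16A1 and COL9A2 were close to the limit of detection. COL16A1, a minor fibril-associated collagen, reached at most 5.58 RPM in a PSC library (primed TRSK), with medians of 2.06, 0.534 and 1.63 RPM in primed, naïve-like and differentiated cells. COL9A2, a chain of the cartilage collagen type IX, was seen mainly in primed cells, at 0 to 7.38 RPM with a median of 2.66. It was at 0 in 4 of 7 naïve-like and in 3 of 7 differentiated libraries and nowhere above 1.89 and 0.422 RPM there, and 17 of 23 libraries held 3 reads of it or fewer. Neither gene passed the expression filter. With the filter dropped, COL9A2 was called lower in naïve-like and in differentiated than in primed cells, by -1.29 ± 0.38 and -1.45 ± 0.38 on the log2 scale.

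COL7A1, COL8A1 and COL18A1 belong to networks and basement membranes. COL8A1 encodes a short-chain collagen that builds open networks under endothelia and in vessel walls. It stood at 6.39 to 139.5 RPM in primed, 0.692 to 46.8 RPM in naïve-like and 3.26 to 111 RPM in differentiated cells, with medians of 20.0, 4.38 and 13.8 RPM, and iPS-S12 held the highest value in each medium. The naïve-like level was lower in 6 of 7 lines, by -1.89 ± 0.71 on average, and higher in CMK9, at 6.39 RPM primed and 14.7 RPM naïve-like. Every line was higher in the differentiated state than in the naïve-like state, by 1.32 ± 0.71. Blocking on the line brought the standard error to 0.41, and both differences then passed the threshold, as did the first one without CMK9 (-2.39 ± 0.75) or without iPS-S12 (-1.95 ± 0.52).

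COL18A1 is a basement membrane collagen whose end fragment is endostatin. Its medians were 41.7 RPM in primed (24.4 to 60.5), 25.8 RPM in naïve-like (4.50 to 48.9) and 34.6 RPM in differentiated cells (14.9 to 67.3). CMK6 alone stood apart, with 40.6 RPM primed, 4.50 RPM naïve-like and 41.1 RPM differentiated, and the next lowest naïve-like line was iPS-S6 at 20.1 RPM. The differences between media were -0.86, 0.67 and -0.20 (SE 0.35 each) and did not pass the threshold, nor did they with the cell line as a block. Without CMK6 they were -0.52, 0.29 and -0.23, again short of it. COL7A1 forms the anchoring fibrils that tie the basement membrane of skin to the tissue beneath it. Its level differed more between lines than between media. TRSK stood at 13.5, 10.99 and 19.3 RPM and iPS-S12 at 10.6, 6.94 and 9.06 RPM in primed, naïve-like and differentiated cells, while the other 5 lines never exceeded 4.34 RPM in any medium. COL7A1 passed the expression threshold in only 1 PSC library, differentiated TRSK, and 9 of 23 libraries held 3 reads of it or fewer.

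**Figure D2:**
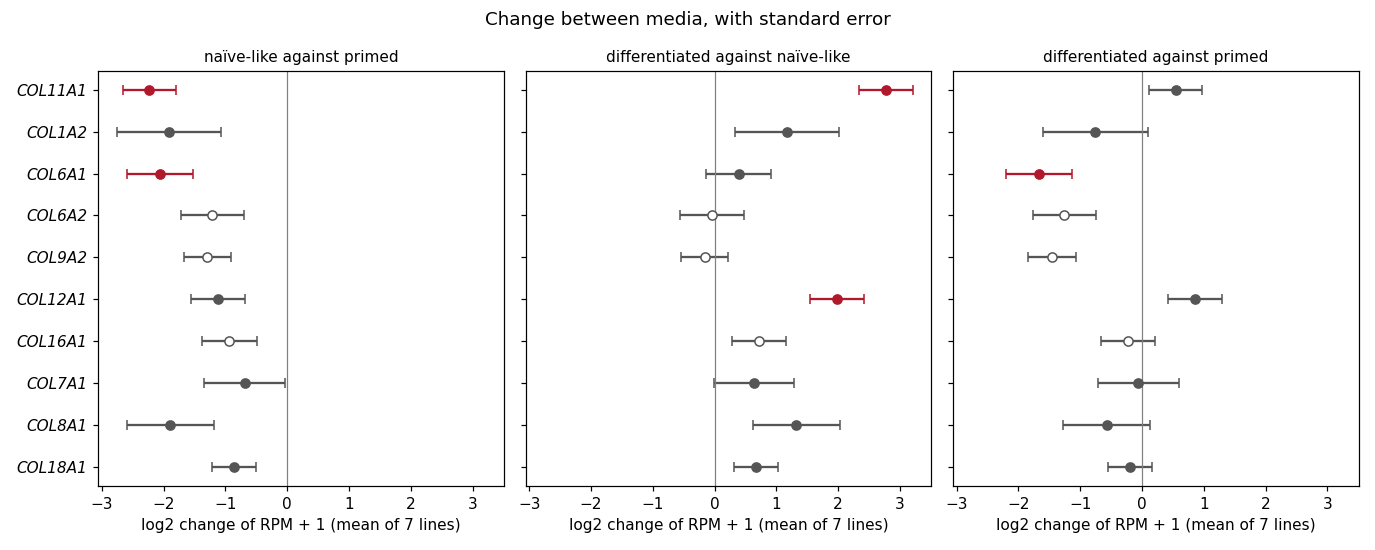
Mean change of log2(RPM + 1) between media for the 10 collagen genes, over 7 lines, with its standard error. Red points passed an adjusted p of 0.05 in the fit without a block, grey points did not, and open points mark the genes below the expression filter, which had no adjusted p there. COL11A1 lies at -2.23 in the left and at 2.77 in the middle panel, and COL6A1 lies left of 0 in the left and right panels.

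The 3 contrasts share libraries, and their counts describe genes that were picked with these values known. Of the 10 collagens, 7 passed the expression filter (log2(RPM + 1) above 4 in at least 1 PSC library), which leaves out COL6A2, COL9A2 and COL16A1. Between naïve-like and primed cells 2 of these 7 were called lower and 0 higher, where 8.18% of all 2776 tested genes were called lower and 19.2% were called in either direction. Of all tested genes 307 were called higher and 227 lower there, and after median centring of the libraries 218 and 261. In the fit blocked on line 5 collagens were lower (COL11A1, COL1A2, COL6A1, COL8A1 and COL12A1), beside 11.5% of all genes. COL11A1 and COL1A2 were lower in each of the 7 lines, as were 6.3% of all genes. Between differentiated and naïve-like cells 2 were higher, 4 with the block, where 6.41% of all genes were called higher and 9.22% with the block. Of the 10, 8 had a higher mean there, all but COL6A2 and COL9A2, beside 47.9% of the 2776 genes. The 8 hold COL16A1, which is not among the 2776, and neither are COL6A2 and COL9A2. In each of the 7 lines 4 were higher (COL11A1, COL1A2, COL8A1 and COL12A1), beside 9.11% of all genes. Between differentiated and primed cells 1 was lower, COL6A1, where 7.13% of all genes were, and 1 with the block, beside 10.1%. It was lower in each of the 7 lines, as were 6.88% of all genes. Of the 10, 8 had a lower mean, all but COL11A1 and COL12A1, beside 45.7% of the 2776 genes. The 8 hold COL6A2, COL9A2 and COL16A1, which are not among the 2776. The median change of the 7 was -1.89, 1.17 and -0.20 in the 3 contrasts, beside 0.06, -0.02 and 0.05 for all tested genes. For each of the 10 collagens the groups overlapped in all 3 contrasts, while 4.07%, 4.36% and 3.24% of all genes had groups without overlap.

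How much each collagen varied with medium and with line is set out in the plot of variation shares. The medium took 67.6% of the variation of COL11A1 over the 21 libraries, 48.3% for COL12A1 and 42.7% for COL6A1, with a median of 22.3% over all tested genes. The line took 73.7% for COL1A2, 72.8% for COL7A1 and 57.5% for COL8A1, with a median of 33.1% over all tested genes. COL7A1 is among the tested genes only through differentiated TRSK, from the line in which it is highest. COL18A1 had the largest remainder, 46.8%. In COL1A2 the medium and the line together left 8.03%, beside a median remainder of 37.3% over all tested genes.

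**Figure D3:**
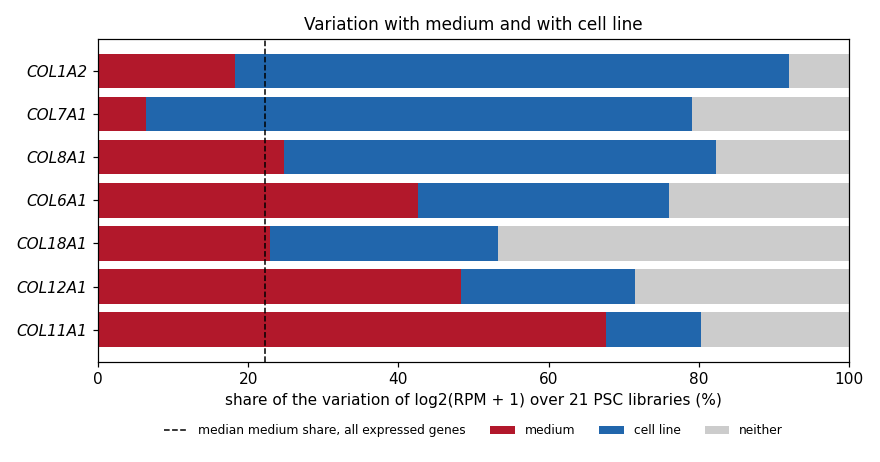
Share of the variation of log2(RPM + 1) over 21 PSC libraries that goes with medium, with cell line and with neither, for the 7 collagens above the expression threshold. The dashed line marks the median medium share over all tested genes, 22.3%. COL1A2 and COL7A1 vary mostly with line and COL11A1 mostly with medium.

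For COL1A2 the order of lines by mean log2 level over the 3 media was TRSK (7.71 ± 1.64, SD over media), CMK6 (6.77 ± 1.77), iPS-S12 (6.45 ± 1.01), CMK9 (6.41 ± 0.44), iPS-L6 (3.92 ± 0.53), iPS-L3 (3.75 ± 1.13) and iPS-S6 (3.54 ± 0.91). Neighbours in this order differed by less than the larger of their spreads, except CMK9 and iPS-L6. COL8A1 had a single line apart, iPS-S12 at 6.51 ± 0.82, followed by iPS-L6 and CMK9 at 3.92 ± 0.86 and 3.92 ± 1.01, and CMK6 came last at 2.41 ± 1.84. For COL7A1, TRSK (3.93 ± 0.38) and iPS-S12 (3.29 ± 0.28) stood above CMK6 (1.96 ± 0.45), and the others lay between 0.93 and 1.43. For COL6A1 the order ran from iPS-S12 (5.92 ± 1.06) to iPS-L3 (3.43 ± 2.21) with every neighbouring pair closer than the larger of their spreads. The spreads in this paragraph hold the differences between media and are no error of a line mean.

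**Figure D4:**
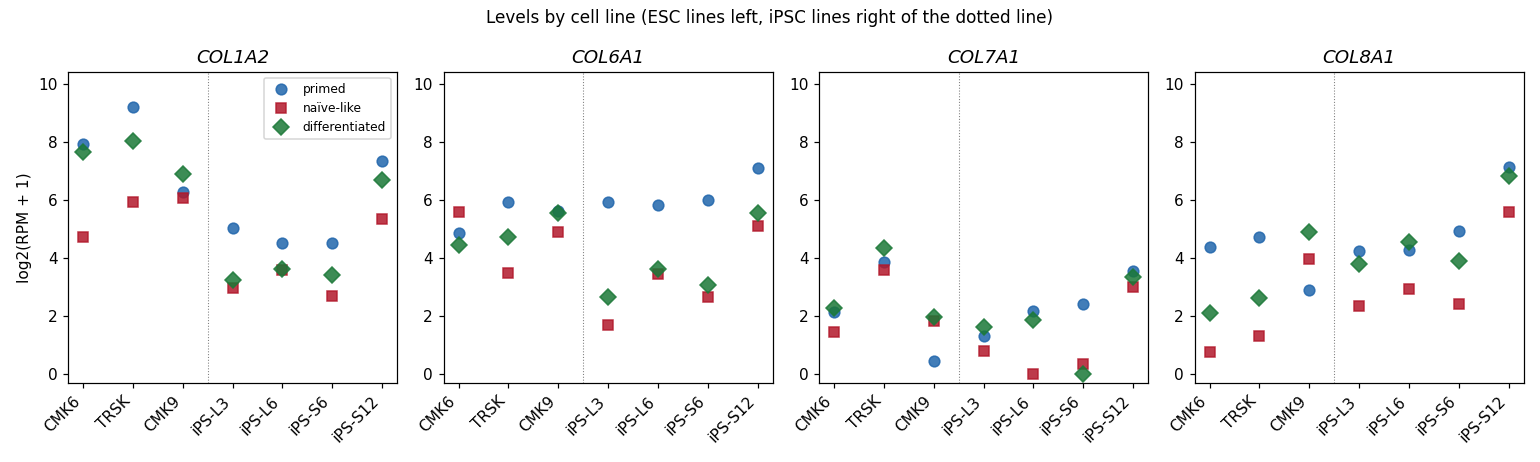
Levels of COL1A2, COL6A1, COL7A1 and COL8A1, as log2(RPM + 1), in each of 7 lines, with primed (circles), naïve-like (squares) and differentiated (diamonds) libraries, ESC lines left and iPSC lines right of the dotted line. COL1A2 is lowest in iPS-S6, iPS-L3 and iPS-L6 in every medium, and COL8A1 is highest in iPS-S12.

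Line type is not named in the choice of the genes, but their levels in each line were known when they were chosen, so the comparison of iPSC with ESC lines is a description as well. It was made on the mean of each line over its 3 media (limma with Benjamini-Hochberg adjustment over 2776 genes). None of the 7 collagens was called between 4 iPSC and 3 ESC lines, where 1.62% of all genes were called, 45 in all, and 421 had an unadjusted p under 0.05. COL1A2, which alone among the 7 had an unadjusted p under 0.05, averaged 6.96 ± 0.67 in ESC lines (SD, n = 3) and 4.41 ± 1.37 in iPSC lines (n = 4). The difference was -2.55 ± 0.62 (SE) and did not pass the threshold. One iPSC line decided it: without iPS-S12 the difference was -3.23 ± 0.28 and passed, while 160 of all genes were then called. COL6A1 behaved alike, at -0.61 with no call, and at -1.12 with a call without iPS-S12. COL8A1 leaned the other way, with a level in iPSC lines above that in ESC lines by 1.34 ± 0.66, and by 0.64 without iPS-S12, neither of them past the threshold. The remaining 4 differed by -0.74 (COL7A1) to 0.02 (COL18A1). The iPSC lines also differed in a retained reprogramming plasmid with OCT3/4. According to the paper's main text, genomic PCR found it in iPS-S6 and both liver-derived lines. These were also the lines lowest in COL1A2 in every medium. A supplementary legend of the paper names iPS-S12 instead of iPS-S6. Whether COL1A2 goes with the plasmid was not tested.

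Somatic cells were far richer in some collagens than any PSC and not in others. COL1A2 reached 4832 RPM in the liver and 4506 RPM in the stomach library, from 8233 and 13896 reads, against a highest PSC value of 579 RPM in primed TRSK. COL6A1 stood at 283 and 588 RPM, above the 137 RPM of primed iPS-S12. Its partner COL6A2 stood at 25.8 and 24.3 RPM, above 8.42 RPM in primed iPS-S12, and COL16A1 at 20.5 and 31.1 RPM, above 5.58 RPM in primed TRSK. COL6A2 and COL16A1 count as expressed only through these 2 libraries, so that they had to stand above the PSCs. Of the 7 collagens expressed in a PSC library, COL1A2 and COL6A1 thus lay above all 21 PSC libraries in both tissues and COL12A1 in stomach cells, beside 8.93% of the 2776 genes expressed in a PSC library for liver and 11.6% for stomach cells. In log2 terms the 4 exceeded the primed mean by 5.84, 2.26, 2.41 and 2.75 in liver cells and by 5.74, 3.31, 2.32 and 3.32 in stomach cells, for COL1A2, COL6A1, COL6A2 and COL16A1.

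The 2 tissues parted over COL11A1. The liver library held a single read of it, 0.587 RPM with an exact Poisson interval of 0.0149 to 3.27 RPM (95%, counting error only). That is under the 3 reads taken as detectable, and the interval reaches past the lowest PSC level, 1.13 RPM in naïve-like iPS-L3. Its ratio to the mean of the primed libraries, 35.04 RPM, was 0.0168 (interval 0.000424 to 0.0933). The stomach library held 49.3 RPM of COL11A1, inside the PSC range. COL12A1 was at 51.1 RPM in liver and at 114 RPM in stomach cells, where only the second exceeded the highest PSC value of 95.6 RPM. COL7A1 was at 1.76 RPM (3 reads) in liver and at 15.6 RPM in stomach cells. COL8A1 (16.5 and 40.2 RPM) and COL18A1 (49.9 and 35.997 RPM) lay within the PSC range in both. COL9A2 had 0 reads in both, which allows up to 1.76 and 0.973 RPM.

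With 1 library per tissue these differences have no replicate check. Past a log2 difference of 2 from the primed mean, 4 of the 10 collagens were higher in liver and 5 in stomach cells, where 4.29% and 7.41% of the 2916 genes expressed in any library were. These counts hold COL6A2 and COL16A1, which entered the 2916 only through the tissues in which they are high. Without them, among the 7 collagens expressed in a PSC library, 2 were higher in liver and 3 in stomach cells, beside 2.16% and 4.11% of the 2776 genes. In the other direction 1 of the 7, COL11A1, was lower in liver and 0 in stomach cells, beside 10.5% and 7.06%. The median difference over the 7 was 0.28 in liver and 1.78 in stomach cells, beside -0.35 and -0.24 over the 2776 genes.

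**Figure D5:**
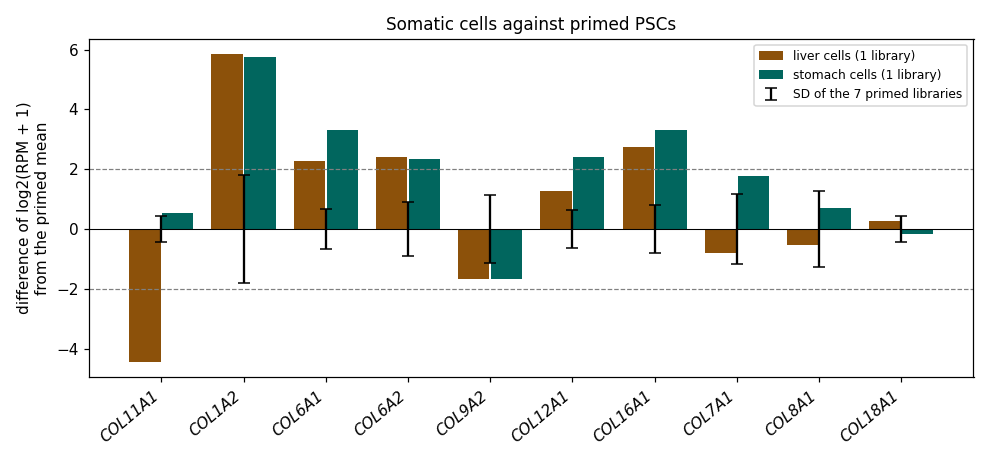
Difference of log2(RPM + 1) between 1 liver library (brown) or 1 stomach library (green) and the mean of the 7 primed PSC libraries, for the 10 collagen genes. Black bars show the SD of the primed libraries around 0 and dashed lines a difference of 2 either way. COL1A2 exceeds 5 in both tissues, and COL11A1 lies at -4.45 in liver cells and at 0.54 in stomach cells.

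Markers of mesenchymal cells, which make most collagen, were summed beside these values, with COL1A2 left out of the list. The 9 such genes in the data summed to 2532 RPM in the liver and 2110 RPM in the stomach library. In PSCs they summed to 23.7 to 246 RPM in primed, 8.66 to 151 RPM in naïve-like and 31.8 to 116 RPM in differentiated cells, and iPS-S12 was the highest line in each medium, as it was for COL8A1. Of the 9, DPT and TCF21 were at 0 in all naïve-like libraries and DPT and MEOX2 in all differentiated libraries, but MEOX2 was also at 0 in both somatic libraries and DPT in the liver library. Other markers were present in PSCs, with TWIST1 at up to 39.9 RPM in naïve-like cells. Differentiated cells held PRRX1 at up to 17.1 RPM and IGFBP7 at 27.1 to 87.7 RPM. The liver sum came mostly from IGFBP7, S100A4 and TCF21, at 1265, 719 and 427 RPM. Past a log2 difference of 2 from the primed mean, 6 of the 7 markers expressed in any library were higher in liver cells. The other, TWIST1, was lower, at 0.587 RPM (1 read) against 2.32 RPM or more in every primed library. In stomach cells 5 of the 7 were higher and 0 lower, with TWIST1 at 5.84 RPM. Of the 2916 genes expressed in any library, 4.29% were higher in liver and 7.41% in stomach cells. TCF21, DDR2 and PDGFRA reached at most 2.65, 7.09 and 6.20 RPM in a PSC library, under the expression threshold. They entered the 7 only through the somatic cells in which they are high, so these counts are no test. Of the 4 markers above the filter, 0 were called between naïve-like and primed cells and 0 between differentiated and naïve-like cells, beside 19.2% and 14.1% of all genes, while S100A4 was lower in differentiated than in primed cells (-2.87 ± 0.82, adjusted p 0.0204 in limma, 7 of 7 lines). That call was lost without iPS-L3, iPS-L6 or iPS-S6, and with the line as a block TWIST1 was also lower in differentiated than in naïve-like cells (-1.81). The part of such cells in the collagen levels was not tested.

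Among the 11 other collagen genes in the data, only COL26A1 and COL9A1 were expressed above the threshold in any of the 23 libraries. The data hold part of the transcriptome, and collagens such as COL1A1, COL3A1 and COL4A1 are not among the genes named in them. COL9A1, the partner chain of COL9A2 in type IX collagen, had medians of 7.35, 0.876 and 6.37 RPM in primed, naïve-like and differentiated cells. It fell with conversion by 1.78 on the log2 scale (SE 0.57, adjusted p 0.0313 in limma, 7 of 7 lines) and rose after withdrawal by 1.70 (adjusted p 0.0466 in limma, 6 of 7 lines). The first call was lost without CMK6, iPS-L3 or iPS-S6, and the second when any line but TRSK was left out. Both were also lost without the expression filter (adjusted p 0.0671 and 0.0946 in limma). COL9A1 passed that filter only through primed TRSK (19.1 RPM) and differentiated iPS-L3 (22.3 RPM), in the media in which it is high. In iPS-L6 its lower naïve-like level rests on 2 reads primed and 1 read naïve-like. COL26A1 took another course and was lower at each step, with medians of 29.4, 14.8 and 8.49 RPM. It was lower in differentiated than in primed cells by 1.47 (adjusted p 0.000153 in limma, 7 of 7 lines), which no alternative changed, and its smaller steps of -0.70 and -0.77 (adjusted p 0.0375 and 0.0287 in limma) were lost when 6 and 3 of the 7 lines, respectively, were left out singly. In somatic cells COL26A1 stood at 2.35 RPM in liver cells and 0 in stomach cells, and COL9A1 at 0 and 7.46 RPM.

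Genes that make or mature collagen were represented by 12 of 41 names listed, of which 10 were tested. Between naïve-like and primed cells 0 were called higher and 1 lower (LEPREL1, a collagen prolyl 3-hydroxylase, -1.19, adjusted p 0.0428 in limma, a call lost with any 1 line left out), against 19.2% of all genes in either direction. Between differentiated and naïve-like cells 0 were higher and 3 lower, against 14.1% of all genes. With the line as a block PCOLCE was called higher in naïve-like than in primed cells (0.79). The 3 were PCOLCE, which enhances the trimming of procollagen ends (-1.84 ± 0.34, adjusted p 0.000793 in limma), and the lysyl hydroxylases PLOD1 (-1.02 ± 0.21, adjusted p 0.00194) and PLOD2 (-1.34 ± 0.45, adjusted p 0.0476), which prepare collagen for cross-linking. PCOLCE had medians of 33.8, 65.4 and 13.7 RPM and PLOD1 of 54.2, 59.3 and 29.7 RPM in primed, naïve-like and differentiated cells. PCOLCE and PLOD1 were lower in differentiated than in primed cells too (-1.05 and -1.01), against 13.4% of all genes called in either direction there. The calls of PLOD2 and of PCOLCE against primed cells were each lost for 5 of the 7 lines left out singly. In somatic cells PLOD2 stood at 60.3 RPM (liver) and 321 RPM (stomach) and PLOD3, another lysyl hydroxylase, at 205 and 242 RPM, against primed medians of 26.7 and 51.2 RPM.

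Collagen receptors were represented by 5 of 16 names, of which 3 were tested. In each of the first 2 contrasts 2 of the 3 were called, beside 19.2% and 14.1% of all genes. DDR1, a receptor tyrosine kinase that collagen activates, fell with conversion by 1.64 (SE 0.36, adjusted p 0.0028 in limma, 7 of 7 lines) and rose after withdrawal by 1.45 (adjusted p 0.00762 in limma, 7 of 7 lines). Its medians were 59.7, 15.7 and 47.6 RPM in primed, naïve-like and differentiated cells, and no alternative changed either call. ANTXR2, which binds type VI collagen and laminin, fell by 1.34 and rose by 1.27 (adjusted p 0.0295 and 0.0467 in limma, 7 of 7 lines each), and each call was lost for 5 of the 7 lines left out singly. With the line as a block CD36 also rose after withdrawal (1.78). DDR2, a relative of DDR1 that is typical of fibroblasts and also in the mesenchymal list, was at medians of 0.294, 0 and 1.06 RPM in the PSC media and at 86.3 and 97.6 RPM in liver and stomach cells. Of the genes listed for collagen breakdown and its inhibition only CTSK and TIMP4 were tested. In any contrast 0 of these 2 were called, beside 19.2%, 14.1% and 13.4% of all genes in the 3 contrasts.

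Of 71 other matrix genes listed, 26 were present and 13 tested. Between naïve-like and primed cells 1 was higher and 3 were lower, where 19.2% of all genes were called in either direction. With the line as a block 6 were lower, beside 11.5% of all genes, which added LAMC1, ECM1 and FBLN2. The lower ones were CCN2, a secreted matrix protein of the YAP response (-1.79, medians 859 and 142 RPM), the basement membrane linker NID1 (-1.33, medians 75.4 and 26.8 RPM) and THBS3 (-0.84), with adjusted p of 0.0457, 0.0181 and 0.0337 in limma. The higher one was SMOC2, with medians of 0, 4.53 and 2.94 RPM in primed, naïve-like and differentiated cells (adjusted p 0.00318 in limma, 7 of 7 lines). Between differentiated and naïve-like cells ECM1 (1.63, adjusted p 0.0189 in limma) and THBS3 (1.19, adjusted p 0.00452 in limma) were higher and 0 were lower, beside 14.1% of all genes in either direction. Between differentiated and primed cells SMOC2 was higher, and FRAS1 and the laminin chain LAMC1 were lower (-1.10 and -0.69, adjusted p 0.015 and 0.0378 in limma), so that 3 of the 13 were called beside 13.4% of all genes. Of these calls, 2 held with each line left out in turn, the higher SMOC2 of naïve-like cells and the higher THBS3 of differentiated than of naïve-like cells.

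Likeness of pattern was measured as Pearson's r of log2(RPM + 1) over the 21 PSC libraries, which share lines and media, and is given as a description. COL12A1 was most like COL11A1 (r = 0.84), and then OPN3 (0.84). COL11A1 itself was most like TTC3 (0.90) and GNG11 (0.87). COL1A2 was most like PDIA4 (0.84), a protein-folding enzyme of the endoplasmic reticulum, and FAM114A1 (0.81), and COL7A1 like DNAJB9 (0.86), a chaperone of the same compartment, and FPGT (0.81). COL6A1 was most like LOC102139487 (0.89) and S100A11 (0.88), COL8A1 like ACTB (0.84), cytoplasmic actin, and EDN1 (0.83), and COL18A1 like LEPREL1 (0.78) and GNG11 (0.77). The 21 pairs among the 7 collagens had r from 0.217 to 0.841 with a median of 0.478, beside a median of 0.0146 over all pairs of tested genes. The collagens were chosen with these levels known, so setting these medians side by side is no test of a shared pattern. With the mean of each medium removed, the median of the 21 pairs was 0.359, for which no value over all pairs is given here.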

How the data were processed

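SC3-seq libraries, sequenced from the 3′ end of the cDNA, were made by the authors from 1 ng of total RNA each, and the submitters' processing notes name cutadapt 1.3, TopHat 1.4.1 and Cufflinks 2.2.0. The deposited values are RPM, scaled by the authors to mapped reads, with 1 column per library. They were not treated as counts, since between 86.7% and 92.9% of a library's non-zero values equalled a whole number of reads (tolerance 0.02), so no count test was used. Depth was read from the size of 1 read. An incomplete last row, cut off before the last libraries, was left out, and the 8415 genes hold part of the transcriptome (24.8% to 27.5% of a library's RPM).

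Libraries were grouped by medium and line from the labels. Values were taken as log2(RPM + 1). limma 3.58.1 (R 4.3.3) with a mean-variance trend was fitted to the 21 PSC libraries for the 2776 genes above 4 in at least 1 of them, with Benjamini-Hochberg adjustment and a call at 0.05. The line was a block in an alternative, since libraries with the same line name come from the same line. Deviations from the medium means correlated by 0.269 on average within a line (21 pairs, lowest 0.0304) and by -0.0446 between lines. Lines are the replicates, and each was sampled once per medium. For line type, limma was run on line means. Tested on simulated data for naïve-like against primed cells (2776 genes), the fit recovered 36 of 100 genes changed 2-fold and 99 of 100 changed 4-fold, with 5 false calls. The simulated libraries were independent, with a common dispersion for all genes and no line effect. These shares therefore do not carry over to genes that vary strongly with line, such as COL1A2 and COL8A1. Somatic libraries, 1 per tissue, had no test. The library names carry running numbers that follow the media. What the numbers mark is not given in the sources used here.

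The 10 genes and all gene lists were chosen with earlier results of these data known. All 10 collagens are named, other collagens where expressed in any library, at most 4 called genes per list and contrast with the largest change, and the 2 genes most alike to each tested collagen. Symbols were matched to RefSeq (T2T-MFA8v1.1) by gene ID for 5564 genes. Alternatives were a pseudocount of 0.1, no filter or a stricter one, quantile normalization, median centring, no trend, the line as a block, only the 2 media compared, and leaving out each line.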

Additional observations from a re-analysis of the deposited data

Results flagged for a closer look

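COL18A1 in naïve-like cells had 1 line apart from the others: CMK6 stood at 4.50 RPM and the next line at 20.1 RPM. On the log2 scale the gap took a share of 0.610 of the whole range of the 7 lines, above the critical value of 0.568 in Dixon's test. In 30 groups of 7 looked at, chance gives about 1 such line in 20 groups, or 1.5 in all, and 1 was found. No collagen moved one way in all ESC lines and the other way in all iPSC lines.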

How the results depend on the processing

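With the cell line as a replicate block, the number of collagens called rose from 2 to 5 for naïve-like against primed cells and from 2 to 4 for differentiated against naïve-like cells, and the number of all genes called for differentiated against primed cells from 372 to 585. The block changed no other collagen call. Without the mean-variance trend the 1 collagen called between differentiated and primed cells, COL6A1, was lost (0), and the genes called between iPSC and ESC lines went from 45 to 24. Without the expression filter COL6A1 was lost there as well, and COL9A2 was called.

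Leaving out 1 line at a time gave 2 to 3 called collagens for naïve-like against primed cells (302 to 527 of all genes, lowest without iPS-L3), 2 to 2 for differentiated against naïve-like cells (219 to 342, lowest without CMK6) and 0 to 1 for differentiated against primed cells (241 to 392, lowest without iPS-S6). For iPSC against ESC lines it gave 0 to 2 collagens and 9 to 160 of all genes, with 160 without iPS-S12 and 9 without TRSK. Somatic differences past the fold numbered 10 of 20, and 10 to 11 without 1 primed line. Counted only over the 7 collagens expressed in a PSC library, a choice made after seeing the data, they numbered 6. The causes were not tested.

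Of 206 collagen changes under the other alternatives 199 kept their call and none turned, 2 lost it and 5 gained it. Of 196 with 1 line left out 187 kept it, 4 lost it, 5 gained it, and 6 uncalled ones changed sign. Of 220 somatic differences 213 moved by less than the spread of the primed libraries. Of the 25 calls of other named genes, 8 held under every alternative and 17 were lost under at least 1. Depth limits COL6A2, COL9A2 and COL16A1 most, followed by COL7A1, and single-library tissues carry no replicate error.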
